A study of Mus musculus with 6 samples.

Results

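A set of 8 cell surface genes that are used to place carcinoma cells between an epithelial and a mesenchymal state was examined in sorted mouse skin squamous carcinoma cells: Epcam, Cd24a, Cd44, Nt5e, Ncam1, Vcam1, Thy1 and Cd34. They were chosen by gene symbol, with earlier results of these data known, and are 8 of the 49671 genes in the deposited table. Each symbol matched 1 row. The cells were LKPR EPCAM+ cells, EPCAM-positive cells isolated by flow cytometry from a squamous cell carcinoma of mouse skin and kept as a line. The tumour genotype, shared by the controls and both knock-downs, included Lgr5CreER, floxed p53 and a Rosa26-YFP reporter, so that the Cre is driven from Lgr5-expressing cells and recombined cells carry YFP. There were 3 groups of 2 libraries: cells transduced with the empty pLKO.1 lentiviral vector, cells with a knock-down of Ntn1, the gene of the secreted guidance ligand netrin-1, and cells with a knock-down of Unc5b, the gene of a netrin-1 receptor. All were cultured for 6 days, and living cells positive for YFP and EPCAM were sorted before RNA was taken. The measurements therefore describe cells of 1 line that still displayed EPCAM, and cells that had lost it were not collected. The labels do not say whether the pair of libraries in each group stems from separate transductions or cultures, so the p-values reflect the spread between these libraries alone, which may be technical.

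In an epithelial-to-mesenchymal transition (EMT), carcinoma cells give up cell-cell junctions and gain motility, and intermediate states in which epithelial and mesenchymal features coexist are common in skin squamous carcinoma. EPCAM is an epithelial adhesion glycoprotein that is lost in the mesenchymal states, and CD24 is a small glycosylphosphatidylinositol (GPI)-anchored sialoglycoprotein that is combined with the hyaluronan receptor CD44 to sort tumour cells. NT5E (CD73) is a GPI-anchored enzyme that makes adenosine from AMP outside the cell, and NCAM1 is a neural cell adhesion molecule. VCAM1 is an adhesion ligand of integrins, THY1 (CD90) is a GPI-anchored protein of fibroblasts and T cells, and CD34 is a sialomucin of endothelial, haematopoietic and hair follicle stem cells.

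The RefSeq promoter table for build GRCm38.p6 matched 4 of the genes, Epcam, Cd44, Nt5e and Cd34, and did not match Cd24a, Ncam1, Vcam1 and Thy1. The 250 bases before the start of Cd44 and of Epcam are shown, since Cd44 was higher in both knock-downs and Epcam is the gene of the marker on which the cells were sorted. They are written from 5′ to 3′ on the strand of the gene, with motif matches in capitals. The Cd44 window is chr2:102901666-102901915 on the minus strand and the Epcam window is chr17:87635729-87635978 on the plus strand.
Cd44: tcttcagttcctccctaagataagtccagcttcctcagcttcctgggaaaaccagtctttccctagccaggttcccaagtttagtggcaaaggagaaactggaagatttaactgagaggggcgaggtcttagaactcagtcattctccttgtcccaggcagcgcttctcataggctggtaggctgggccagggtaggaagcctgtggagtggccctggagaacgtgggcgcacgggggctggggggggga
Epcam: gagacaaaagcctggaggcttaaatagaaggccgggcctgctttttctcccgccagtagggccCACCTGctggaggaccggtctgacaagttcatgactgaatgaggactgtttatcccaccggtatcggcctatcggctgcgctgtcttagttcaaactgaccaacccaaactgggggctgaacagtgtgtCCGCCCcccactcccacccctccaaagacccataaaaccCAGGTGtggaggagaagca
The windows were searched on both strands for 5 short motifs: the AP-1 site TGANTCA, the TEAD site GGAATG, the E-box CAGGTG bound by ZEB and SNAI factors, the GC box GGGCGG and the TATA box TATAAA. Epcam held the E-box at 187 bases before the start, as CACCTG on the strand shown, and again at 19 bases as CAGGTG, and held a GC box as CCGCCC at 58 bases. None of these matches overlapped another. The Cd44 and Cd34 windows held no match, and the Nt5e window, whose sequence is not printed because it lies within an annotated exon, held 4 GC box matches. Those at 223 and 219 bases before the start overlap each other, and so do those at 24 and 19 bases. Over 32851 RefSeq promoters the share of such windows with a match was 17.2% for the E-box, 32.7% for the GC box, 6.75% for AP-1, 12.6% for TEAD and 12.4% for TATA. A match describes letters only. The G and C content was 56.4% in both printed windows, 72.0% for Nt5e and 46.4% for Cd34, against a median of 52.4%.

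The authors' values are whole numbers scaled to about 20 M per library and are called levels here. In each library every value above 0 was a whole multiple of 1 step within the rounding tolerance of 0.5, which gives what 1 read was worth (1.96525 to 3.05782) and a depth of 6.54 to 10.18 M reads. Levels correlated at r = 0.98 to 0.99 within groups and 0.936 to 0.967 between groups, across genes. Ribosomal RNA took 1.61 to 2.03% of the values and mitochondrial genes 1.94 to 2.34%. Ntn1 was at 1566 and 2588 in the empty vector and at 359 and 431 in its knock-down (log2 fold change -2.34 ± 0.29, limma adjusted p = 0.00162), and Unc5b was at 1527 and 1573 and fell to 419 and 352 in its own (-2.0 ± 0.13, adjusted p = 0.000252). Unc5b was also higher with Ntn1 knocked down, at 2311 and 2382 (0.6 ± 0.13, adjusted p = 0.0193, and 0.15 or 0.175 without Ntn1 knock-down library 1 or 2), and Ntn1 stood at 1319 and 771 with Unc5b knocked down, which did not pass (-0.99 ± 0.29, adjusted p = 0.0638). The latter passed in 4 of the 15 alternatives, among them those that left out library 1 of the empty vector (0.0145) or of the Unc5b knock-down (0.0408).

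Of the 8 surface genes, Cd44 and Nt5e were higher in the Ntn1 knock-down than in the empty vector (1.64-fold and 1.7-fold), Cd44 was higher (1.46-fold) and Ncam1 4.22-fold lower in the Unc5b knock-down, and Epcam and Cd24a passed the test in no comparison. Vcam1, Thy1 and Cd34 rested on a few reads. Only 5 of the 8 genes, Epcam, Cd24a, Cd44, Nt5e and Ncam1, reached the filter of a mean level of at least 20 over the 6 libraries and entered the main test. A linear model (limma) was fitted to log2(level + 5) over the 15330 genes that reached the filter, and a gene is called changed at a Benjamini-Hochberg adjusted p under 0.05. Against the empty vector, 2 of the 5 tested genes were called with Ntn1 knocked down, beside 15.1% of all genes tested. With Unc5b knocked down 2 were called, beside 12% of all genes, and between the knock-downs 2 were called, beside 7.1%. With 5 genes tested these counts are a description of the members.

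**Figure D1:**
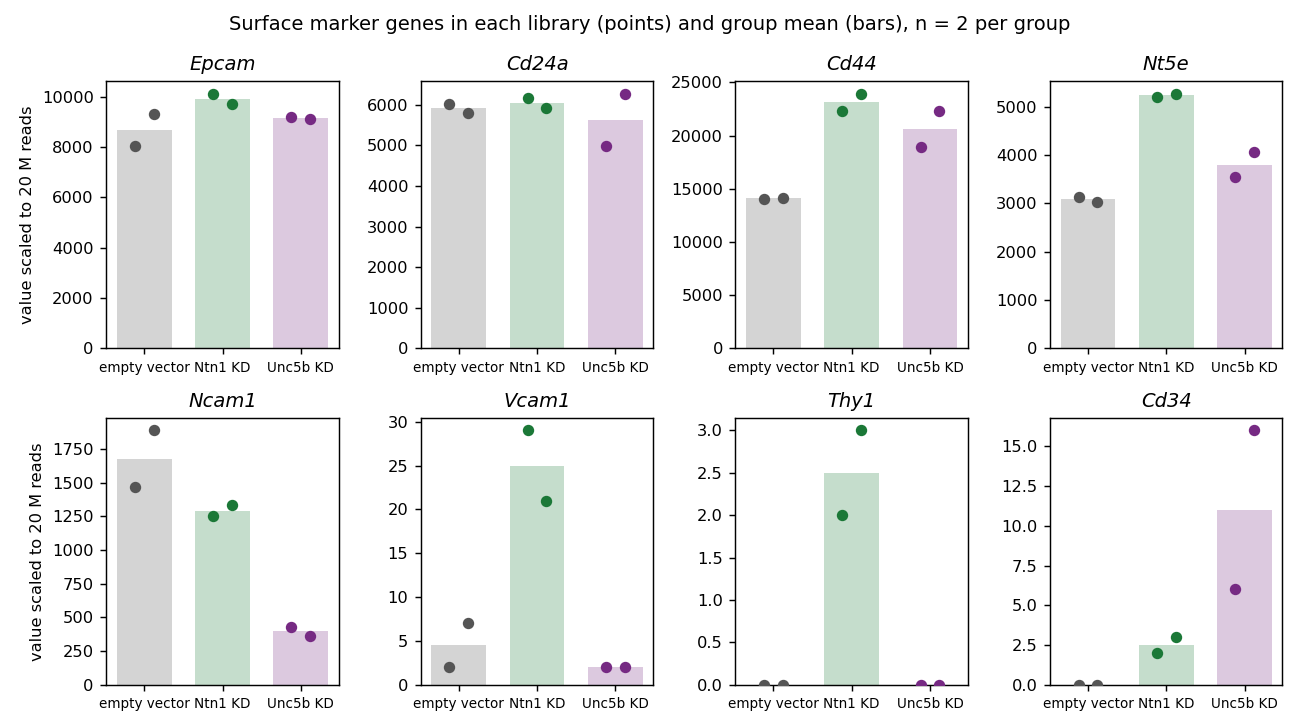
Level of each of the 8 surface genes in the 6 libraries, as deposited and scaled to 20 M per library (vertical axes); points are libraries and bars are the means of 2 libraries of the empty vector, the Ntn1 knock-down (KD) and the Unc5b knock-down. Cd44 lies between 14071 and 14156 in the empty vector and at 18888 or above in every knock-down library, and Ncam1 lies at 364 and 432 in the Unc5b knock-down.

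Epcam (ENSMUSG00000045394, chr17:87635979-87651129, plus strand, GRCm38 with the GENCODE M21 annotation) had the highest level per kb of exon among the 8 genes in each group. Its level was 8032 and 9336 in the empty vector, 10127 and 9736 with Ntn1 knocked down and 9186 and 9121 with Unc5b knocked down. The Ntn1 knock-down libraries were both above the control libraries, and the Unc5b knock-down libraries lay between the controls. The log2 fold change was 0.20 ± 0.11 (SE) in the Ntn1 knock-down (limma adjusted p = 0.27) and 0.08 ± 0.11 in the Unc5b knock-down (adjusted p = 0.696), so neither passed. The 95% confidence intervals ran from 0.963-fold to 1.36-fold and from 0.888-fold to 1.26-fold. Because EPCAM on the surface was the sorting gate, these RNA levels describe cells selected for the protein.

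Cd24a (ENSMUSG00000047139, chr10:43578284-43584265, plus strand) stood at 6029 and 5794 in the empty vector, 6180 and 5914 with Ntn1 knocked down and 4984 and 6275 with Unc5b knocked down. All 3 groups overlapped, and the Unc5b knock-down libraries spanned the range of the other two groups. The log2 fold changes of 0.03 ± 0.13 (adjusted p = 0.892) and -0.08 ± 0.13 (adjusted p = 0.743) did not pass. The intervals were 0.835-fold to 1.25-fold for the Ntn1 and 0.773-fold to 1.16-fold for the Unc5b knock-down. Without Unc5b knock-down library 1 the latter estimate turned to 0.09 (adjusted p = 0.731).

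EPCAM is held in complexes with the claudin CLDN7 and the tetraspanin TSPAN8, is cleaved by sheddases and gamma-secretase, and passes a signal to the LIM protein FHL2. Of 14 genes for these partners and processing steps, 13 reached the filter. With Ntn1 knocked down 1 rose and 3 fell, with a median log2 fold change of 0.03 beside -0.02 over all genes tested. Fhl2 rose 1.56-fold (adjusted p = 0.0197), Tspan8 fell from 77 ± 39.6 to 9.5 ± 3.5 (SD, n = 2, adjusted p = 0.02), Spint1, which encodes a serine protease inhibitor, fell 1.52-fold (adjusted p = 0.032) and Cldn7 fell 1.39-fold (adjusted p = 0.0263). Each of these 4 calls was lost without either Ntn1 knock-down library: without library 1 the adjusted p was 0.181 for Fhl2, 0.15 for Tspan8, 0.0894 for Spint1 and 0.149 for Cldn7, and without library 2 it was 0.127, 0.0927, 0.264 and 0.222. Without an empty vector library, Tspan8 (0.0857 without library 2), Spint1 (0.0878 without library 2) and Cldn7 (0.0514 without library 1) were lost as well. In the Unc5b knock-down 2 fell, Spint1 (1.69-fold, adjusted p = 0.0165, 0.12 without Unc5b knock-down library 2) and Tspan8 (adjusted p = 0.0459). The latter was lost without Unc5b knock-down library 2 (0.242), without empty vector library 2 (0.179) and without either Ntn1 knock-down library (0.0889 and 0.0893), and Tspan8 shares exon bases with another gene. Tspan8 reached the filter only through the empty vector, where it is high, and in the fit without the filter neither of its comparisons passed (adjusted p = 0.0888 and 0.156). Between the knock-downs 0 of the 13 were called. The sheddase and gamma-secretase genes, among them Adam10, Adam17 and Ncstn, passed the test in none of the 3 comparisons.

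Cd44 (ENSMUSG00000005087, chr2:102811141-102901665, minus strand) encodes the hyaluronan receptor and was higher in both knock-downs. It was at 14071 and 14156 in the empty vector, 22294 and 23934 with Ntn1 knocked down and 18888 and 22343 with Unc5b knocked down. All 4 knock-down libraries stood above the controls, and the knock-downs overlapped each other. The log2 fold change against the empty vector was 0.71 ± 0.12 in the Ntn1 knock-down (1.64-fold, adjusted p = 0.00538) and 0.54 ± 0.12 in the Unc5b knock-down (1.46-fold, adjusted p = 0.0195). Between the knock-downs it was 0.17 ± 0.12 (adjusted p = 0.431), with an interval of 0.936-fold to 1.35-fold, so a difference between them was not shown and was not bounded closely. The comparisons with the empty vector share their control libraries.

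The Ntn1 call of Cd44 was lost on leaving out either Ntn1 library (adjusted p = 0.0614 without library 1 and 0.0855 without library 2), at log2 fold changes of 0.76 and 0.66. The Unc5b call was lost without Unc5b knock-down library 2 (0.42, adjusted p = 0.132), without Ntn1 knock-down library 1 (0.066) or 2 (0.0656), without the filter on low levels (0.082), with no trend of the variance (0.0924) and in a fit of the 4 libraries compared (0.0671). In the last alternatives only the pooled estimate of the spread or the number of genes tested changed, and the fold change remained 0.54.

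**Figure D2:**
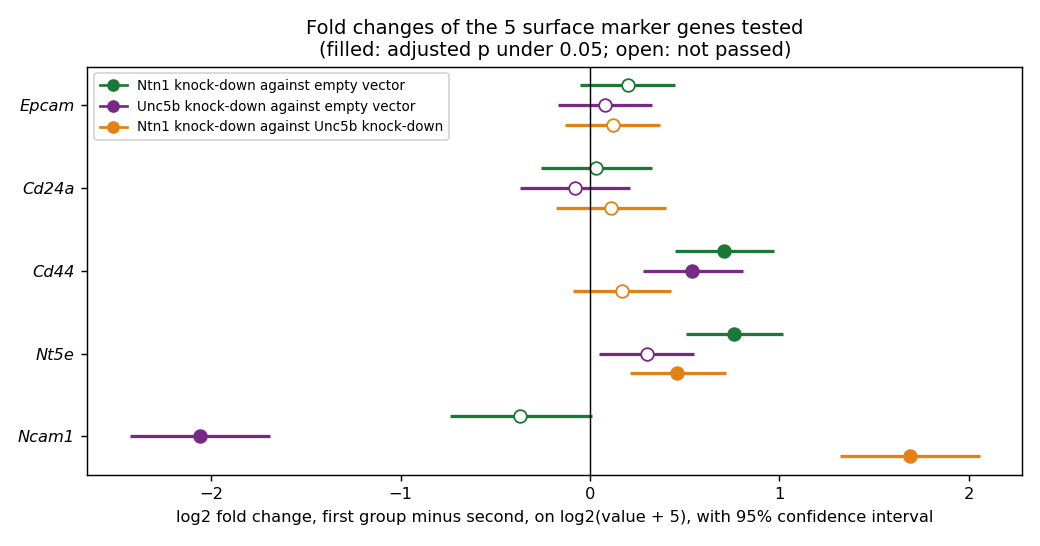
Log2 fold change on the log2(level + 5) scale (horizontal axis) of the 5 surface genes that reached the filter, in the 3 comparisons; points are limma estimates, bars are 95% confidence intervals, and filled points are called at an adjusted p under 0.05. Ncam1 is lowest, at -2.06 in the Unc5b knock-down against the empty vector, and the intervals of Epcam and Cd24a span 0 in every comparison.

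CD44 binds hyaluronan, which hyaluronan synthases extrude from the cell, and is linked to actin by ezrin, radixin and moesin. In a list of 18 genes for hyaluronan synthesis and breakdown, other CD44 ligands, splicing and shedding, 15 reached the filter. In the Ntn1 knock-down 2 rose and 0 fell (median log2 fold change -0.01, all genes -0.02), and the Unc5b knock-down likewise had 2 higher and 0 lower (0.05, all genes 0.04). These were the same genes, Has2 and Msn. Has2, a hyaluronan synthase gene, was at 173 and 361 in the empty vector, 1710 and 1425 with Ntn1 knocked down and 1167 and 1086 with Unc5b knocked down. Every knock-down library was above the controls, by 5.87-fold (adjusted p = 0.00104) and 4.22-fold (adjusted p = 0.0031) on group means. Both calls held in all 15 alternatives. The exons of Has2 overlap those of an antisense gene, so its reads may be shared.

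Msn, which encodes moesin, was at 18017 and 16198 in the empty vector, 24391 and 24365 in the Ntn1 knock-down (1.42-fold, adjusted p = 0.0157) and 24464 and 26824 in the Unc5b knock-down (1.5-fold, adjusted p = 0.0113). The calls were lost without Ntn1 knock-down library 1 (0.143) or 2 (0.14) and without Unc5b knock-down library 2 (0.0864), and Msn also shares exon bases with another gene. Between the knock-downs 1 of the 15 genes was lower in the Ntn1 knock-down, the osteopontin gene Spp1 (1.63-fold, adjusted p = 0.0161), which shares exon bases with another gene, a call lost without Ntn1 knock-down library 1 (0.198) or 2 (0.154) or Unc5b knock-down library 1 (0.09).

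Nt5e (ENSMUSG00000032420, chr9:88327197-88372092, plus strand) stood at 3127 and 3034 in the empty vector, 5203 and 5272 with Ntn1 knocked down and 3539 and 4072 with Unc5b knocked down. The groups stood apart, with the empty vector lowest and the Ntn1 knock-down highest. With Ntn1 knocked down it rose 1.7-fold (0.76 ± 0.11 on the log2 scale, adjusted p = 0.00327). In the Unc5b knock-down the estimate was 1.24-fold (0.30 ± 0.11, adjusted p = 0.124), which did not pass. The difference between the knock-downs passed narrowly at 1.38-fold (0.46 ± 0.11, adjusted p = 0.0438). The 1.7-fold call was lost without Ntn1 knock-down library 1 (0.0589) or 2 (0.061), with log2 fold changes of 0.77 and 0.76. The difference between the knock-downs was lost without any of their 4 libraries (0.29 and 0.3 without Ntn1 library 1 and 2, 0.197 and 0.0813 without Unc5b library 1 and 2), without the filter (0.101), with no variance trend (0.143) and with the replicate number as a block (0.107).

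NT5E takes its AMP from ectonucleotidases such as ENTPD1 and ENPP1, and the adenosine acts on ADORA receptors or is cleared by transporters, ADA and ADK. Of 17 genes of this pathway, 8 reached the filter. Entpd1 was listed at 0 in all 6 libraries. Among them 3 rose and 1 fell with Ntn1 knocked down (median log2 fold change 0.05, all genes -0.02). Enpp1, the gene of an enzyme that makes AMP from ATP, was at 77 and 165 in the empty vector, 618 and 648 with Ntn1 knocked down and 541 and 322 with Unc5b knocked down. It rose 5.23-fold in the Ntn1 knock-down (adjusted p = 0.00332), a call that held in all 15 alternatives, and 3.57-fold in the Unc5b knock-down (adjusted p = 0.0132, 0.0849 without Unc5b knock-down library 1). Enpp1 was the 1 gene of the list called in the Unc5b knock-down (median 0.47, all genes 0.04).

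Adora1, an adenosine receptor gene, rose 4.24-fold (adjusted p = 0.0124) and Acpp, the gene of a phosphatase that can also cleave AMP, 3.57-fold (adjusted p = 0.00851) in the Ntn1 knock-down. Without Ntn1 knock-down library 1 or 2 these gave 0.0612 and 0.133 for Adora1, whose exons overlap another gene, and 0.098 and 0.0617 for Acpp. Ada, which removes adenosine, fell 1.98-fold at an adjusted p of 0.0493 and was lost in 12 of the 15 alternatives, where the adjusted p reached 0.247. Between the knock-downs Adk stood 1.49-fold lower with Ntn1 knocked down (adjusted p = 0.0327), lost in 8 alternatives with an adjusted p up to 0.265. These 12 included leaving out empty vector library 1 (0.157), either Ntn1 knock-down library (0.168 and 0.247) and either Unc5b knock-down library (0.0736 and 0.0772), and the 8 included leaving out either Ntn1 (0.237 and 0.265) and either Unc5b knock-down library (0.0937 and 0.182).

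Ncam1 (ENSMUSG00000039542, chr9:49502136-49798925, minus strand) showed the largest difference among the 5 tested genes. Its level was 1470 and 1889 in the empty vector, 1253 and 1333 with Ntn1 knocked down and 432 and 364 with Unc5b knocked down. The Unc5b knock-down libraries were far below all others, and the Ntn1 knock-down libraries were just below the lower control. Ncam1 fell 4.22-fold in the Unc5b knock-down (log2 fold change -2.06 ± 0.16, adjusted p = 0.000404), and this call held in all 15 alternatives with an adjusted p of 0.000165 to 0.0119. In the Ntn1 knock-down the log2 fold change of -0.37 ± 0.16 did not pass (adjusted p = 0.173), with an interval of 0.6-fold to 1.0-fold. Ncam1 was 3.25-fold higher in the Ntn1 than in the Unc5b knock-down (1.69 ± 0.16, adjusted p = 0.00144), which was lost without Ntn1 knock-down library 1 (0.0521) or 2 (0.0538).

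The exons of Ncam1 share 417 bases with those of Gm11149, an antisense gene on the plus strand. The strand setting of the counting is not given in the sources used here, so reads from the shared bases cannot be told apart. Gm11149, named after its values were seen, was at 411 and 412 in the empty vector, 247 and 287 with Ntn1 knocked down and 85 and 69 with Unc5b knocked down. It too was lowest in the Unc5b knock-down (log2 fold change -2.35 ± 0.2, adjusted p = 0.000439, held in all 15 alternatives). It held fewer reads than Ncam1 in every library, and its part in the Ncam1 result was not tested.

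NCAM1 carries polysialic acid added by ST8SIA2 and its relatives, and it interacts with FGF receptors. It also binds GDNF, which signals separately through the RET kinase. Of 12 such genes, 6 reached the filter. Of these 2 rose and 1 fell with Ntn1 knocked down (median 0.72, all genes -0.02). Ret was at 16 and 16 in the empty vector, 418 and 453 with Ntn1 knocked down and 47 and 90 with Unc5b knocked down. It rose 27.2-fold in the Ntn1 knock-down (adjusted p = 0.000203), which held in all 15 alternatives, and 4.28-fold in the Unc5b knock-down (adjusted p = 0.0113, 0.0779 without Unc5b knock-down library 2). St8sia2 had the value 0 in both empty vector libraries, at 45 and 76 with Ntn1 knocked down and at 0 and 2 with Unc5b knocked down. It reached the filter only through the Ntn1 knock-down, where it is high, so its place in the counts and the medians of this list follows from the filter. The fit without the filter held 28618 genes, those with a value above 0 in at least 1 library. There the rise of St8sia2 in the Ntn1 knock-down passed as well (adjusted p = 0.013).

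Fgfr1 was at 4202 and 6194 in the empty vector, 1263 and 1529 with Ntn1 knocked down and 1998 and 1144 with Unc5b knocked down. It fell 3.72-fold (adjusted p = 0.00318, 0.056 without Ntn1 knock-down library 1) and 3.31-fold (adjusted p = 0.00522), and its exons overlap another gene. In the Unc5b knock-down these were 1 higher and 1 lower gene of the 6, with a median of 0.03 beside 0.04 over all genes. That median counts St8sia2 at 0.24 ± 0.49, an estimate that rests on almost no reads and sets no direction. Between the knock-downs Ret (6.36-fold, adjusted p = 0.00375) and St8sia2 (adjusted p = 0.0307 without the filter) were higher in the Ntn1 knock-down (median 0.62, all genes -0.05). Without Ntn1 knock-down library 1 or 2 these gave 0.0762 and 0.0787 for Ret and 0.0766 and 0.118 for St8sia2, both with the filter.

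Vcam1, Thy1 and Cd34 were at or close to the limit of detection. The floor of 3 reads corresponds to a level of 5.90 to 9.17 in single libraries, and intervals and floors on reads cover counting error only. Vcam1 (ENSMUSG00000027962, chr3:116109949-116129688, minus strand) stood at 2 and 7 in the empty vector, 29 and 21 with Ntn1 knocked down and 2 and 2 with Unc5b knocked down. These levels are 4, 19 and 2 reads per group. The Ntn1 knock-down held 1.27 reads per M (exact 95% Poisson interval 0.765 to 1.98) against 0.211 (0.0576 to 0.541) in the empty vector and 0.111 (0.0135 to 0.402) in the Unc5b knock-down. The ratio to the empty vector was 6.01 (2.0 to 24.3, counting error only) in the Ntn1 and 0.526 (0.0476 to 3.67) in the Unc5b knock-down. In a fit without the filter, Vcam1 had a log2 fold change of 1.70 ± 0.37 in the Ntn1 knock-down (adjusted p = 0.0698) and did not pass. Vcam1 shares 61 exon bases with the antisense gene Gm43109, which was listed at 0 in every library.

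Cd34 (ENSMUSG00000016494, chr1:194938819-194961279, plus strand) had the value 0 in both empty vector libraries, at 2 and 3 with Ntn1 knocked down and at 6 and 16 with Unc5b knocked down. With 10 reads in the Unc5b knock-down (0.556 per M, 0.267 to 1.02) and none in the empty vector, it was at the floor in Unc5b knock-down library 1, with 3 reads, and above it only in library 2, with 7. In the fit without the filter the Unc5b difference did not pass (1.60 ± 0.36, adjusted p = 0.0898). Cd34 shares 148 exon bases with the antisense gene Gm16897, which was at 28 and 5, 17 and 6, and 9 and 12 in the same order of groups. Thy1 (ENSMUSG00000032011, chr9:44043384-44048579, plus strand) had no reads in the empty vector and Unc5b knock-down libraries and had 1 read in each Ntn1 knock-down library. At this depth no difference in Thy1 was detectable, since the exact 95% interval of 0 reads reaches 0.195 reads per M in the empty vector and 0.205 in the Unc5b knock-down, above the 0.134 reads per M of the Ntn1 knock-down.

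**Figure D3:**
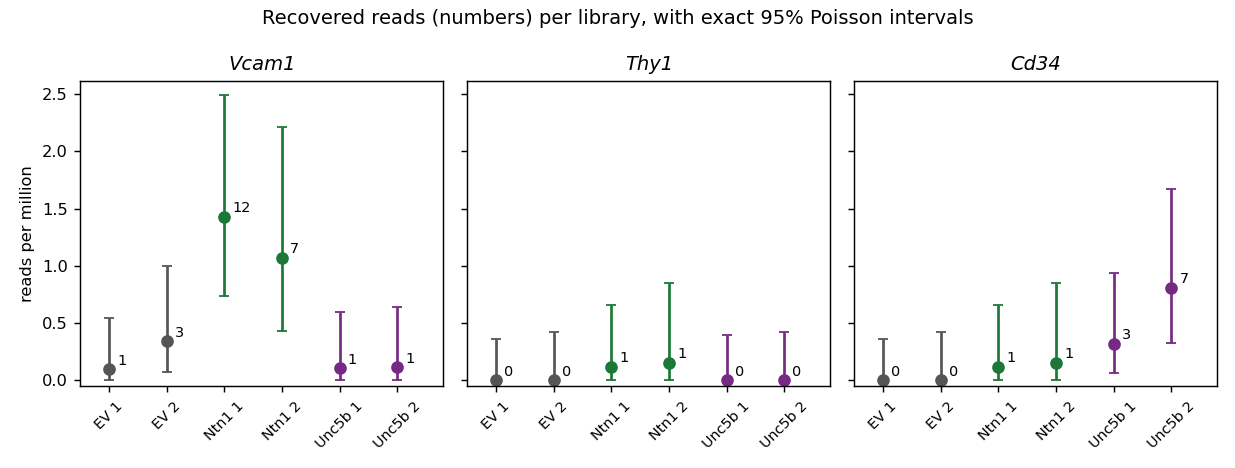
Recovered reads per M (vertical axis) of Vcam1, Thy1 and Cd34 in each library of the empty vector (EV), the Ntn1 and the Unc5b knock-down, with the number of reads beside each point and exact 95% Poisson intervals that cover counting error only. Vcam1 has 12 and 7 reads in the Ntn1 knock-down and at most 3 in any other library, Cd34 has 3 and 7 in the Unc5b knock-down, and Thy1 has at most 1.

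These 3 genes also mark other cell types, so the markers of those types are given beside them. Of 9 fibroblast markers, Thy1 included, 2 reached the filter, Dpt was at 0 in all libraries, and Dcn, Lum, Dpt and Thy1 had at most 3 reads in any library. Their summed level was 136 to 137 in the empty vector, 211 to 311 in the Ntn1 knock-down and 139 to 237 in the Unc5b knock-down. Of 9 endothelial markers, Cd34 included, 2 reached the filter, Emcn was at 0, and Kdr, Tek, Vwf, Emcn and Cldn5 had at most 3 reads in any library. The sum was 110 to 126, 203 to 266 and 115 to 120 and moved with Cdh5, the VE-cadherin gene, at 0 and 0, 86 and 113, and 2 and 0. Pecam1, the other endothelial marker that reached the filter, was at 104 and 94, 90 and 107, and 96 and 88. Cdh5 reached the filter only through the Ntn1 knock-down, where it is high, and without the filter its adjusted p there was 0.00989.

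Of 14 immune markers 3 reached the filter, 5 were at 0 (Cd4, Cd8a, Adgre1 and Lyz2 among them) and 11, with the pan-leukocyte gene Ptprc among them, had at most 3 reads in any library. Their sum was 1432 to 1679, 648 to 779 and 1260 to 1842 and moved with Csf1r, which was 3.45-fold lower with Ntn1 knocked down (adjusted p = 0.00193) and shares exon bases with another gene. Of 10 melanocyte and nerve markers 4 reached the filter, Dct was at 0 and Mlana, Tyr, Dct and Sox10 had at most 3 reads. The sum was 2409 to 2947, 1126 to 1155 and 1694 to 1863 in the same order. Of its called genes Mitf was 4.39-fold (Ntn1, adjusted p = 0.000431) and 4.7-fold (Unc5b, adjusted p = 0.000466) below the controls, and Mbp stood 1.74-fold lower with Ntn1 knocked down (adjusted p = 0.00538, and 0.0814 or 0.0623 without Ntn1 knock-down library 1 or 2), at 1378 and 1235, 732 and 774, and 1468 and 1346. The part of these markers in the levels of Vcam1, Thy1 and Cd34 was not tested. In bulk samples fewer cells of a type and less RNA per cell cannot be told apart.

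The 11 epithelial markers all reached the filter and summed to 58506 to 61254 in the empty vector, 66459 to 69536 in the Ntn1 knock-down and 58481 to 61603 in the Unc5b knock-down. With Ntn1 knocked down 2 rose, 2 fell and 7 did not pass. The basal keratin gene Krt5 was at 287 and 320, 1034 and 1027, and 697 and 776, and rose 3.4-fold in the Ntn1 (adjusted p = 0.000327) and 2.43-fold in the Unc5b knock-down (adjusted p = 0.00136). Both calls held in all 15 alternatives, and Krt5 was the 1 epithelial marker called in the Unc5b knock-down. Krt5 shares exon bases with another gene. The other gene that rose in the Ntn1 knock-down was Krt18 (1.38-fold, adjusted p = 0.0234). The genes that fell there encode claudins, Cldn4, which fell 1.59-fold from 7991 ± 217.8 to 5013 ± 230.5 (SD, n = 2, adjusted p = 0.00392), and Cldn7, given above. Between the knock-downs Cdh1, the E-cadherin gene, was higher (1.49-fold, adjusted p = 0.0228) and Cldn4 lower (1.58-fold, adjusted p = 0.0094) with Ntn1 knocked down. Without Ntn1 knock-down library 1 or 2 these gave 0.186 and 0.17 for Krt18, 0.0555 and 0.077 for Cldn4 against the empty vector and 0.12 and 0.156 between the knock-downs, and 0.249 and 0.177 for Cdh1. Krt18 was also lost without empty vector library 1 (0.0558), Cldn4 between the knock-downs without Unc5b library 1 (0.0644), and Cdh1 without Unc5b library 1 (0.0641) or 2 (0.139).

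VCAM1 and THY1 bind integrins. Of 10 genes of these integrins 6 reached the filter, and in the Ntn1 knock-down 1 rose and 1 fell (median 0.3, all genes -0.02). The alpha chain genes Itga4, Itga9, Itgam and Itgax did not reach it. Itga9 was at 0 in all 6 libraries, and Itga4 was at 0 and 0 in the empty vector. With Ntn1 knocked down Itga4 was at 0 and 3, and with Unc5b knocked down at 0 and 5. Itgam and Itgax were at 2 or 0 in every library. The alpha chain gene Itgav did reach the filter. It was at 10209 and 8792 in the empty vector, 12945 and 11669 with Ntn1 knocked down and 11118 and 11095 with Unc5b knocked down. Itgav passed in no comparison (limma adjusted p = 0.0621 in the Ntn1 and 0.244 in the Unc5b knock-down, and 0.499 between them). The calls below are those of beta chain genes. Itgb3 was at 6 and 2 in the empty vector, 221 and 205 with Ntn1 knocked down and 77 and 162 with Unc5b knocked down. It rose in the Ntn1 (log2 fold change 4.63 ± 0.4, adjusted p = 0.000369) and the Unc5b knock-down (3.74 ± 0.4, with adjusted p = 0.0011), and both calls held in all 15 alternatives. The Itgb3 levels of the empty vector lay near or below the floor of 3 reads (5.90 and 6.86 in libraries 1 and 2), so the sizes of its rises are loose. Over the alternatives the log2 fold change ran from 3.28 to 5.54 in the Ntn1 and from 2.47 to 4.62 in the Unc5b knock-down. Itgb3 was the 1 gene of the 6 called in the Unc5b knock-down (median 0.05). Itgb5 fell 2.98-fold in the Ntn1 knock-down (adjusted p = 0.0106), from 2563 and 4253 to 1144 and 1147, and was lost without Ntn1 knock-down library 1 (0.0983) or 2 (0.0971). Itgb7 was 1.86-fold higher with Ntn1 than with Unc5b knocked down (adjusted p = 0.031), and without Ntn1 library 1 or 2 or Unc5b library 1 or 2 the adjusted p was 0.265, 0.191, 0.116 and 0.161.

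The CD34 family holds podocalyxin, the gene Podxl, which rose 1.65-fold in the Ntn1 knock-down, from 2054 and 2179 to 3505 and 3465 (adjusted p = 0.00339), with 2548 and 2645 in the Unc5b knock-down. The call was lost without Ntn1 knock-down library 1 (0.0669) or 2 (0.0607). Of 4 genes of the family 2 reached the filter. In the Unc5b knock-down neither passed, and between the knock-downs Podxl stood 1.34-fold above its Unc5b knock-down level with Ntn1 knocked down, at an adjusted p of 0.0495, which ranged up to 0.327 over the alternatives (0.327 and 0.303 without Ntn1 library 1 and 2, 0.186 and 0.159 without Unc5b library 1 and 2).

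CD24, NT5E and THY1 are held in the membrane by a GPI anchor. Of 29 genes of anchor synthesis and transfer 27 were found in the table and reached the filter. In the Ntn1 knock-down 1 rose, 1 fell and 25 did not pass (median 0.02), in the Unc5b knock-down 2 rose (median 0.21, all genes 0.04) and between the knock-downs 1 was lower in the Ntn1 knock-down (median -0.25, all genes -0.05). Pigm, the gene of a mannosyltransferase of this pathway, was at 1303 and 1322 in the empty vector, 832 and 871 with Ntn1 knocked down and 2015 and 1983 with Unc5b knocked down. It stood below the controls in the Ntn1 knock-down (1.54-fold, adjusted p = 0.00895) and above them in the Unc5b knock-down (1.52-fold, adjusted p = 0.0123), and the knock-downs differed by 2.35-fold (adjusted p = 0.00142). Without Ntn1 knock-down library 1 the 3 comparisons gave 0.115, 0.0502 and 0.0577, without library 2 the first gave 0.089, and without Unc5b knock-down library 1 or 2 the second gave 0.0655 and 0.0747.

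Levels were compared between genes per kb of exon, with all annotated exons of a gene joined (6.78 kb for Cd44, 2.58 kb for Cd24a). The length of the transcripts present in these cells was not measured. The order of genes that lie close, such as Cd24a and Cd44, therefore depends on this divisor. In the empty vector the order of group means was Epcam (3960 per kb), Cd24a (2290), Cd44 (2080), Nt5e (358), Ncam1 (194) and Vcam1 (0.507), with Thy1 and Cd34 at 0. With Ntn1 knocked down Cd44 (3410 per kb) stood above Cd24a (2340), and in the Unc5b knock-down it did so too (3040 and 2180). From Epcam to Ncam1 no 2 neighbours in these orders overlapped between libraries. The order of Vcam1, Thy1 and Cd34 among themselves rests on few reads: in the Ntn1 knock-down Thy1 and Cd34 had 1 read each in every library, so only their exon lengths set them apart. Per kb, Epcam was above 99.6%, Cd24a above 98.8%, Cd44 above 98.7%, Nt5e above 86.7%, Ncam1 above 76.9% and Vcam1 above 34.8% of 21811 coding genes in the empty vector.

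Ratios within a library do not depend on its depth or scaling. The ratio of Cd44 to Cd24a levels was 2.33 and 2.44 in the empty vector, 3.61 and 4.05 with Ntn1 knocked down and 3.79 and 3.56 with Unc5b knocked down. The control libraries were lowest and the knock-downs overlapped. The ratio of Nt5e to Ncam1 was 2.13 and 1.61, 4.15 and 3.95, and 8.19 and 11.2 in the same order, and here the Unc5b knock-down was highest. Relative to Epcam, Cd24a stood at 0.543 to 0.751 over all libraries with every group overlapping another. The ratio of Ncam1 to Epcam was 0.183 and 0.202 in the empty vector, 0.124 and 0.137 with Ntn1 knocked down and 0.047 and 0.0399 with Unc5b knocked down. For Nt5e to Epcam it was 0.389 and 0.325, 0.514 and 0.541, and 0.385 and 0.446 in the same order. On this ratio the Unc5b knock-down overlapped the empty vector, unlike the Nt5e levels themselves. With 2 libraries against 2 an exact permutation test cannot go below 0.333, so these ratios were not tested.

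**Figure D4:**
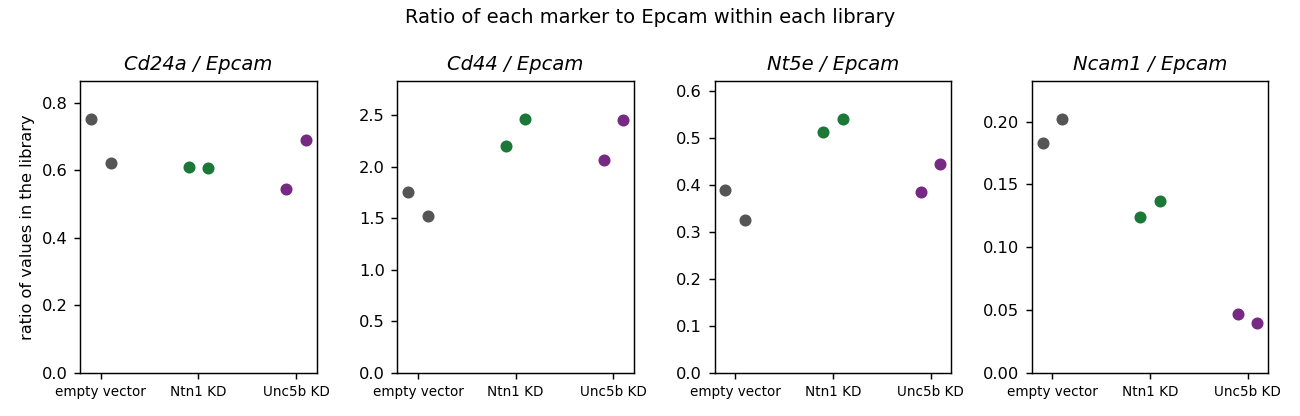
Level of Cd24a, Cd44, Nt5e and Ncam1 divided by the Epcam level of the same library (vertical axes, linear from 0); points are the 2 libraries of the empty vector, the Ntn1 knock-down (KD) and the Unc5b knock-down. The Cd44 ratio is 1.52 to 1.75 in the empty vector and 2.06 or more in the knock-downs, and the Ncam1 ratio is lowest in the Unc5b knock-down.

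The genes most like a called member were found by the distance between log2(level + 5) profiles over the 6 libraries, each centred on its own mean, among 15329 genes. Nearest to Cd44 were Zfp146, Fam220a and Eif5, at distances of 0.12, 0.13 and 0.14 (median of all genes 0.99). Nearest to Nt5e were Nt5c, Pald1 and Sgsh, at 0.12, 0.12 and 0.13 (median 1.03). Nt5c, which encodes a cytosolic nucleotidase, was at 242 and 236, 418 and 391, and 280 and 336. For Ncam1 they were Gbp7, Jkamp and Gata6, at 0.32, 0.33 and 0.37 (median 2.35), with the transcription factor gene Gata6 at 238 and 430, 247 and 229, and 81 and 65. The genes share libraries and depth, and these distances are a description.

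Another 32 surface markers of epithelial, transitional and mesenchymal tumour cells were examined in the same way, and 24 reached the filter. In the Ntn1 knock-down 9 rose, 2 fell and 13 did not pass (median 0.42, all genes -0.02), in the Unc5b knock-down 2 rose and 4 fell (median -0.04, all genes 0.04), and 7 were higher and 0 lower in the Ntn1 than in the Unc5b knock-down (median 0.45, all genes -0.05). Of all genes tested 8.04% were higher and 7.06% lower in the Ntn1 knock-down, 5.9% and 6.07% with Unc5b knocked down, and 4.15% and 2.95% between the knock-downs. Itga5, the fibronectin receptor gene, was at 574 and 558 in the empty vector, 2242 and 2137 with Ntn1 knocked down and 1406 and 1299 with Unc5b knocked down. It rose 3.87-fold (adjusted p = 0.000125) and 2.39-fold (adjusted p = 0.000658), and each call held in all 15 alternatives. Itgb3, described above, was the other gene of the list that rose in both knock-downs.

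Cdh2, the N-cadherin gene, was at 43 and 98 in the empty vector, 811 and 709 with Ntn1 knocked down and 9 and 7 with Unc5b knocked down. It moved in opposite directions, 10.8-fold higher (adjusted p = 0.000864) and 8.81-fold lower (adjusted p = 0.00473), and differed between the knock-downs (log2 fold change 5.88, adjusted p = 0.000774), and these calls held in all 15 alternatives. The Unc5b knock-down levels lay near the floor of 3 reads (6.41 and 6.95 in libraries 1 and 2). The sizes of the fall and of the difference between the knock-downs are therefore loose. Prom1, which encodes CD133, was at 2 and 0, 69 and 70, and 6 and 0, and it shares exon bases with another gene. Prom1 is 1 of the 9 that rose in the Ntn1 knock-down but reached the filter only through that group, and without the filter its adjusted p was 0.0209. Lgr5, whose promoter drives the Cre of the tumour model, was at 43 and 322 in the empty vector, 5 and 9 with Ntn1 knocked down and 2 and 2 with Unc5b knocked down. Its control libraries lay far apart, it reached the filter only through them, and without the filter neither comparison passed (adjusted p = 0.106 and 0.0838). The Ntn1 call (adjusted p = 0.0226) was lost without empty vector library 2 (0.0594) or Ntn1 knock-down library 1 (0.16) or 2 (0.116), and the Unc5b call (adjusted p = 0.012) without Unc5b knock-down library 1 (0.0611) or 2 (0.0776).

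Cd109, the gene of a GPI-anchored protein, was at 234 and 160, 250 and 263, and 53 and 88. Against the empty vector it was 2.79-fold lower with Unc5b knocked down (adjusted p = 0.0166), and without Unc5b knock-down library 1 or Ntn1 knock-down library 1 or 2 this gave 0.0857, 0.0522 and 0.0515. Between the knock-downs it was 3.64-fold higher with Ntn1 knocked down (adjusted p = 0.0103), and the same omissions gave 0.0614, 0.121 and 0.133. Ly6a, which encodes the stem cell antigen SCA-1, stood 1.68-fold lower with Ntn1 knocked down (adjusted p = 0.0231), at 5621 and 7111 against 3662 and 3932. Without empty vector library 2 or Ntn1 knock-down library 1 or 2 it gave 0.0708, 0.182 and 0.136.

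**Figure D5:**
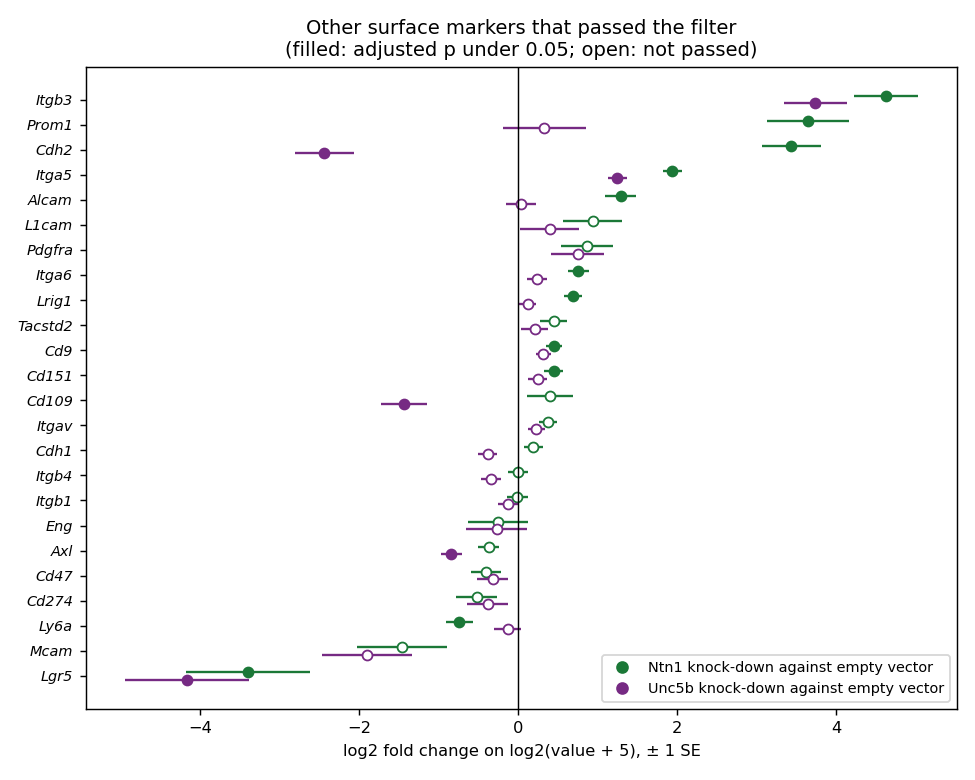
Log2 fold change against the empty vector on the log2(level + 5) scale for the other surface markers that reached the filter, in the Ntn1 and the Unc5b knock-down; points are limma estimates, bars are 1 SE to each side, and filled points are called at an adjusted p under 0.05. Cdh2 stands at 3.44 in the Ntn1 and -2.44 in the Unc5b knock-down, and Itgb3 stands at 4.63 and 3.74. The sizes of the Itgb3 rises and of the Cdh2 fall are loose. Itgb3 in the empty vector and Cdh2 in the Unc5b knock-down lay near the floor of 3 reads.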

How the data were processed

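RNA from 6 libraries was measured with the Ovation Solo kit. Tools named, per the submitters' processing notes, are STAR, HTSeq and Picard, with build GRCm38 (mm10). Their versions, the strand setting and how values were scaled are not given there. The authors deposited values that are a score: whole numbers with a total near 20 M in each library, so scaled and rounded. The design allowed for counts or scaled values, and the latter branch was used. Whole reads were recovered from the step of each library (6.54 to 10.18 M reads); no count model was fitted, and a voom fit of these reads was added after seeing the data.

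Levels were analysed as log2(value + 5) for genes with a mean of at least 20 with limma 3.58.1 in R 4.3.3 (variance trend, 3 residual and 5.33 prior degrees of freedom, 2-sided tests, Benjamini-Hochberg adjustment over all 15330 genes per comparison, all 6 libraries). On this scale the log2 fold change of a low gene comes out too small. Fold values are ratios of group means as deposited. The script was tested on simulated data. Gene positions are from GENCODE M21, in which 49412 of 49671 identifiers were found, and sequences from RefSeq.

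The members, gene lists and tests were chosen with earlier results of these data known. All 8 members were named; of each list (other surface markers, EPCAM partners, CD44 and hyaluronan, adenosine pathway, integrin ligands of VCAM1 and THY1, NCAM1 partners, CD34 family, GPI anchor, and markers of epithelial, fibroblast, endothelial, immune, and melanocyte and nerve cells) at most the 3 called genes with the largest change per direction and comparison were to be named, with the targeted genes and the 3 nearest profiles of each called member. The 15 alternatives covered the pseudocount (1 or 20), the filter, 2 other scalings, the variance trend, the libraries fitted, the replicate block, leaving out each library, and voom. Libraries of a group differed by more than counting noise (chi-square per gene 3.51 to 16.72), so none was treated as a repeat deposit of another; this does not show separate cultures. Part of the shared genotype and a few list genes are not reported here.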

Additional observations from a re-analysis of the deposited data

How the results depend on the processing

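The 6 calls among the members kept their direction in all 15 alternatives and were all kept with pseudocounts of 1 and 20, both other scalings and voom on the recovered reads. With no filter and with no variance trend, 1 member in place of 2 was called in the Unc5b knock-down against the empty vector and 1 in place of 2 between the knock-downs. Fitting only the 4 libraries compared gave 1 for the former. Leaving out 1 library gave 0 to 2 members called in the Ntn1 knock-down, 1 to 2 in the Unc5b knock-down and 0 to 2 between the knock-downs. The counts of 0 came without either Ntn1 knock-down library, where 2 members had an unadjusted limma p under 0.05 in each of these comparisons; voom was run on all libraries only, with 2 called. Over all genes 2314, 1835 and 1088 were called in the comparisons in that order, and 1289, 791 and 302 with no filter, 1462, 1115 and 454 with no variance trend, 507 to 2769, 680 to 2428 and 34 to 1842 with 1 library left out, 950 and 1856 for the latter pair with only the 4 libraries compared, and 2126, 1742 and 954 with voom. Reversed signs were seen only for uncalled values: over the libraries left out, Epcam in the Unc5b knock-down ranged from -0.03 (without empty vector library 1) to 0.19, Cd24a there from -0.25 to 0.09 (without Unc5b knock-down library 1) and Cd24a between the knock-downs from -0.05 (without the same library) to 0.28. The cause was not tested where the number of genes or libraries fitted did not change. For the replicate block, the labels give the libraries only a number, and the deviations of same-numbered libraries correlated at 0.16, -0.45 and -0.169 across genes between the 3 pairs of groups. With the replicate block 1465, 1102 and 459 genes were called, the members called between the knock-downs went from 2 to 1 (Nt5e, adjusted p = 0.107), and no other member call changed. Of 67 calls of list genes, targeted genes and Gm11149, 38 were kept with no filter, 44 with no variance trend, 53 with the replicate block and 61 with voom, and 0 reversed in any alternative. Depth limits Vcam1, Thy1 and Cd34, which rest on at most 19 reads per group.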
